A study of Mus musculus with 8 samples.

Results

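The genes of the translation initiation factors (eIFs), the proteins that bring the ribosome to the start codon of an mRNA, were read in mouse Th17 cells and in the naive CD4 T cells from which such cells are grown. Both groups are labelled wild type. Members were taken by name from the deposited gene table as every symbol of Eif followed by a digit, leaving out the 4 Eif2ak kinases. This gave 52 of 16308 genes, of which 49 had enough reads to be tested. The study sequenced ribosome-depleted RNA of C57BL/6 CD4 T cells in 8 libraries, 2 in each of 4 groups, and listed A-to-I edited sites, adenosines turned into inosine, in the same RNA. Its Th17 cells had been cultured for 72 h with antibodies to CD3 (0.25 µg/mL) and CD28 (1 µg/mL) and with the cytokines TGF-β (0.1 ng/mL) and IL-6 (20 ng/mL), and its naive cells were untreated. The growth protocol gives TGF-β as 0.1 to 5.0 ng/mL and the treatment protocol also names 48 h. DDX5-deficient Th17 cells (DDX5∆T) and a separate group of wild-type Th17 cells, of the same 72 h treatment, entered only the editing lists used here. Because the Th17 cells were also activated through CD3 and CD28, polarization and activation cannot be told apart in this comparison.

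Initiation begins when eIF2, bound to GTP, carries the initiator methionyl-tRNA to the small ribosomal subunit, where eIF3 forms a large scaffold. The eIF4F complex, made of the cap-binding protein eIF4E, the scaffold eIF4G and the RNA helicase eIF4A, recruits the mRNA by its cap, and the small subunit scans to the start codon with eIF1, eIF1A and eIF5 before eIF5B joins the large subunit. The pathway is held back at its best-known control points by phosphorylation of the eIF2 alpha subunit, which blocks the exchange factor eIF2B, and by the 4E-BP proteins, which occupy eIF4E until the kinase complex mTORC1 phosphorylates them. Activation of T cells is known to raise protein synthesis strongly.

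The libraries held 11768994 to 26624436 reads on genes. Across genes, log2 CPM correlated at 0.959 between the Th17 libraries and at 0.9901 between the naive libraries, and at 0.718 to 0.742 between groups, where genes are not independent replicates. CPM, here and below, is the read count of a gene scaled to 1 common size of library after TMM normalization, and a sum of CPM adds the genes named. It is a share of the library, so a change in RNA per cell is not seen, and fewer cells of a type and less RNA per cell cannot be told apart in such bulk samples. The defining genes followed the labels, with all 6 Th17 markers higher (summed, 3979 and 3568 CPM in the Th17 libraries, against 0.796 and 0.563 CPM in the naive libraries) and all 6 naive markers lower in Th17 cells. Cd4, Cd3e and Cd3d were expressed in all 4 libraries, at summed 955 and 843 CPM in the Th17 libraries, against 2349 and 2745 CPM in the naive libraries. Of the dendritic cell list, H2-Ab1, Batf3 and Zbtb46 were higher, Itgax was lower (log2 fold change -3.63) and Flt3 was not called. The 5 summed to 109 and 112 CPM in the Th17 libraries, against 6.42 and 4.08 CPM in the naive libraries, of which H2-Ab1 made up 79.8 and 83.7 CPM in the Th17 libraries, against 3.71 and 2.39 CPM in the naive libraries. The 6 myeloid markers summed to 3.82 and 3.86 CPM in the Th17 libraries, against 7.11 and 5.21 CPM in the naive libraries, the 6 B cell markers to 0.624 and 1.29 CPM in the Th17 libraries, against 2.33 and 3.17 CPM in the naive libraries, and the 6 CD8 and NK markers to 50.6 and 51.8 CPM in the Th17 libraries, against 87.98 and 105 CPM in the naive libraries. The 6 erythroid markers summed to 4.51 and 12.6 CPM in the Th17 libraries, against 12.7 and 8.10 CPM in the naive libraries. Single genes went against their list, with Cd14, Nkg7 and Epor called higher. The part of other cells in the results was not tested.

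Most of the factor genes whose RNA changed were higher in Th17 cells, led by Eif4ebp1, Eif3j2 (from few reads), Eif1a, Eif2s2, Eif5a, Eif1ax, Eif4e, Eif2s1 and Eif3j1, while the subunit genes Eif3e, Eif3f and Eif3k and the inhibitor gene Eif4ebp2 were lower. In the quasi-likelihood test of edgeR, adjusted by Benjamini-Hochberg over 11989 genes and called at 0.05, 27 of the 49 members (55.1%) were called, beside 65.1% of all tested genes. Members called higher numbered 20 (40.8%), beside 34.3% of all genes, and members called lower numbered 7 (14.3%), beside 30.7%. With library totals in place of TMM scaling that split was 30 higher and 4 lower. Leaving out naive library 1 gave 10 higher and 7 lower members, and leaving out naive library 2 gave 14 and 4. The median log2 fold change, Th17 over naive, was 0.31 over the members and 0.06 over all tested genes, and 33 of 49 members lay above 0. Past a log2 of 1, 9 of the 49 members were higher, a smaller share than the 24.8% of all genes. Past the same limit 4 of the 49 were lower, also a smaller share than the 18% of all genes. Summed over the 52 members, the level was 13614 and 13239 CPM in the Th17 libraries, against 11091 and 12717 CPM in the naive libraries. Of the 27 calls, 14 kept their direction and their side of the threshold under all 10 alternative settings of the fit, namely Eif1a, Eif1ax, Eif2s1, Eif2s2, Eif3e, Eif3f, Eif3j1, Eif3k, Eif4a1, Eif4e, Eif4ebp1, Eif4ebp2, Eif5a and Eif5b. With 2 libraries a group, the p-values measure the spread between these samples, which the labels do not tie to separate animals. For called genes, a lack of overlap between groups, given below, comes from the same libraries as the call and adds no separate evidence. Its share over all tested genes was not counted.

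**Figure D1:**
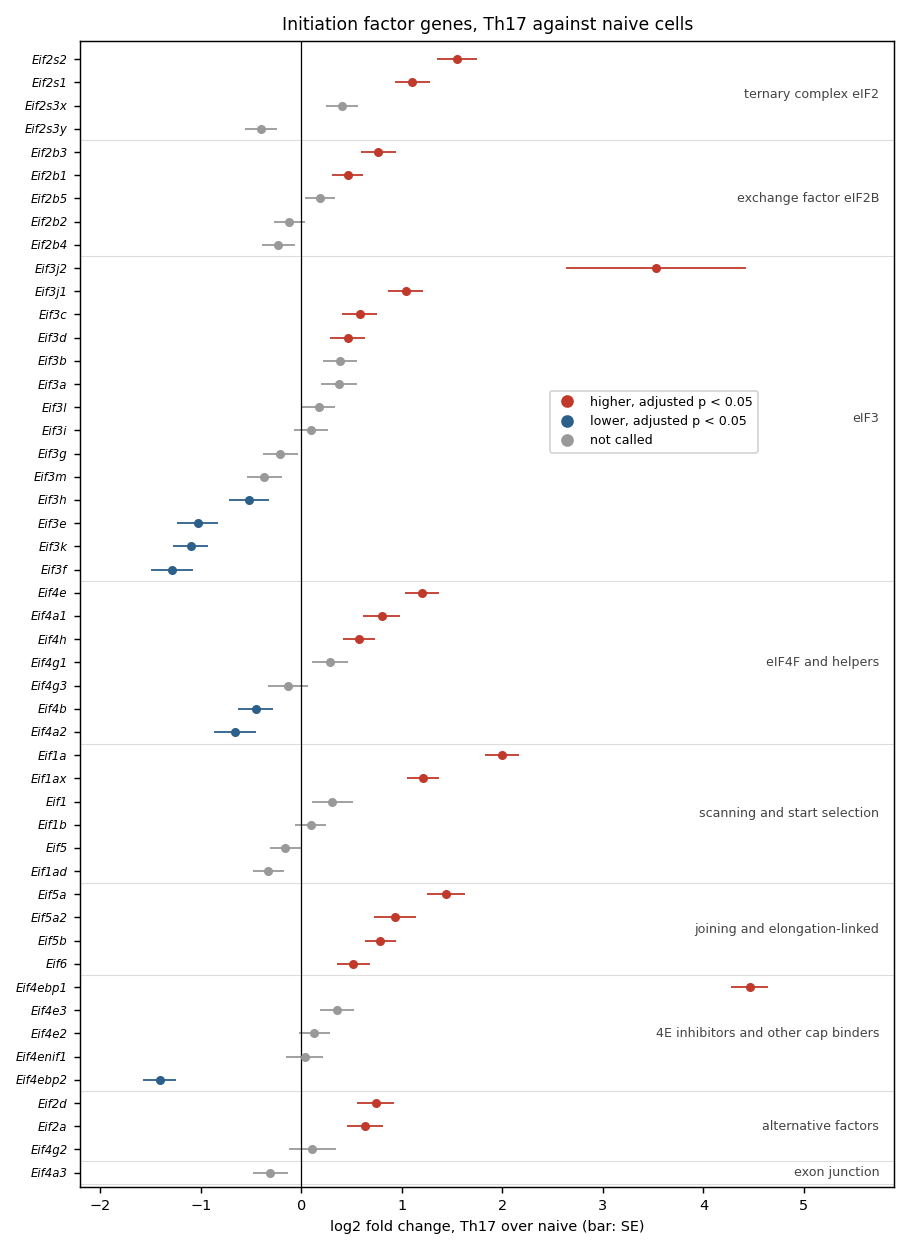
Log2 fold change, Th17 over naive (points), with its standard error (bars) for the 49 tested initiation factor genes, arranged by complex, with the colour giving the call at an adjusted p under 0.05. The 4 eIF2 and 14 eIF3 genes each spread to both sides of 0, whereas the 4 genes of the joining group all lie above it.

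**Figure D2:**
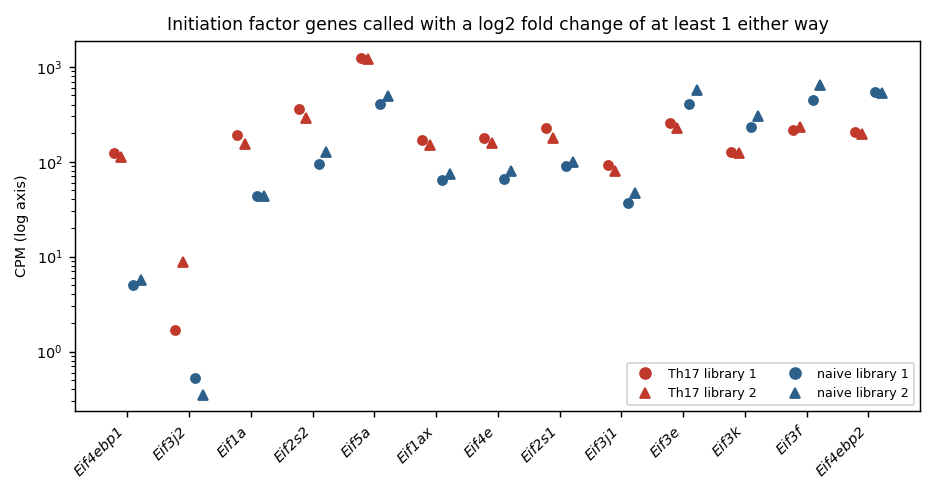
CPM on a log axis in each Th17 and naive library for the 13 members called with a log2 fold change of at least 1 in either direction. The libraries of the groups do not overlap for any of the 13, which were chosen by calls and fold changes from these same libraries. Eif4ebp1 shows the widest gap between groups, and the Th17 libraries of Eif3j2 lie apart, at 1.70 and 8.87 CPM.

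Among the eIF2 genes, the alpha and beta subunits rose and the gamma subunit did not pass the test. Eif2s2 (chr2:154871410-154892935), which encodes the beta subunit, was at 356 and 286 CPM in the Th17 libraries, against 93.5 and 126 CPM in the naive libraries, 2.93-fold higher in Th17 cells (log2 fold change 1.55, SE 0.20, adjusted p = 0.00017). Eif2s1 (chr12:78861819-78887010) encodes the alpha subunit that the stress kinases phosphorylate, and was at 228 and 179 CPM in the Th17 libraries, against 90.9 and 98.4 CPM in the naive libraries (log2 fold change 1.11, SE 0.17, adjusted p = 0.00049). The groups did not overlap for either gene. The gamma subunit has a copy on each sex chromosome, and Eif2s3x on the X was at 138 and 117 CPM in the Th17 libraries, against 91.3 and 101 CPM in the naive libraries (log2 fold change 0.40, SE 0.16, adjusted p = 0.0503). Its Y-linked partner Eif2s3y was at 62.7 and 76.1 CPM in the Th17 libraries, against 90.4 and 92.7 CPM in the naive libraries, with the opposite sign (log2 fold change -0.40, SE 0.16, adjusted p = 0.0535). Neither was called, and both missed the threshold narrowly. Between the copies, the log2 ratio of Eif2s3x over Eif2s3y was 1.14 and 0.62 in the Th17 libraries, against 0.01 and 0.13 in the naive libraries. The other Y-linked genes checked did not move alike. Kdm5d was at 27.6 and 27.4 CPM in the Th17 libraries, against 97.2 and 80.3 CPM in the naive libraries, and was called lower, as was Ddx3y (log2 fold change -0.52). Uty was at 33.6 and 31.2 CPM in the Th17 libraries, against 31.5 and 31.6 CPM in the naive libraries, and was not called. Summed over the 4 eIF2 genes, the level was 785 and 659 CPM in the Th17 libraries, against 366 and 419 CPM in the naive libraries.

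The exchange factor eIF2B reloads eIF2 with GTP. Of its 5 genes 2 rose and 3 were not called. Eif2b3, the gamma subunit of the catalytic part, was at 37.1 and 30.2 CPM in the Th17 libraries, against 18.6 and 21.1 CPM in the naive libraries (log2 fold change 0.77, SE 0.18, adjusted p = 0.0044), and Eif2b1, the regulatory alpha subunit, was called with a log2 fold change of 0.46. The call of Eif2b3 was lost without naive library 1 or 2, and that of Eif2b1 without either of these or Th17 library 1 and under both other low-count filters. At the other end Eif2b4, the delta subunit, was at 50.2 and 44.1 CPM in the Th17 libraries, against 50.3 and 60.3 CPM in the naive libraries (log2 fold change -0.23, SE 0.16, adjusted p = 0.242). Eif2b2 and the catalytic epsilon gene Eif2b5 had log2 fold changes of -0.12 and 0.18. Eif2b3 also had the lowest level per length of the 5, at 5.69 and 4.63 CPM per kb in the Th17 libraries, against 2.85 and 3.23 CPM per kb in the naive libraries. Per kb of annotated exon the median over the eIF2 genes was 37.3 ± 5.39 CPM per kb in Th17 cells and 20.6 ± 0.729 in naive cells, whereas the median over the eIF2B genes was 22.6 ± 2.81 in Th17 cells and 21.3 ± 2.73 in naive cells (SD, n = 2 each).

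Genes whose products act on eIF2 changed in both directions. Of the 4 eIF2 kinase genes, which the naming rule leaves out, 3 rose and 1 fell. Eif2ak2 encodes PKR, the kinase that senses double-stranded RNA, and was at 91.3 and 75.3 CPM in the Th17 libraries, against 37.4 and 18.1 CPM in the naive libraries (log2 fold change 1.58, adjusted p = 0.0255). Eif2ak1, the haem-regulated kinase, was at 63.7 and 56.6 CPM in the Th17 libraries, against 81.4 and 78.9 CPM in the naive libraries (log2 fold change -0.41, adjusted p = 0.0389). Of 7 genes of the eIF2 phosphatase and of the transcription factors downstream of eIF2, 2 rose and 1 fell. Atf4, whose mRNA is translated when eIF2 is phosphorylated, was at 431 and 371 CPM in the Th17 libraries, against 158 and 182 CPM in the naive libraries (log2 fold change 1.24, adjusted p = 0.00025), and Ppp1ca, a phosphatase catalytic subunit, was at 477 and 417 CPM in the Th17 libraries, against 603 and 721 CPM in the naive libraries (log2 fold change -0.57, adjusted p = 0.0232). The call of Eif2ak1 was lost in 6 alternatives, and that of Ppp1ca with library totals and without Th17 library 2 or naive library 2. The phosphorylation of eIF2 itself was not measured.

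The eIF3 genes divided. Of 14 tested, 4 were higher, 4 were lower and 6 were not called, and the median log2 fold change was 0.14. Without the loosely bound J subunit genes Eif3j1 and Eif3j2, 2 of 12 were higher and 4 lower, with a median of -0.06. The 4 that fell were Eif3e, Eif3f, Eif3h and Eif3k, which encode subunits of the octamer of PCI and MPN domain proteins. Eif3f (chr7:108934417-108942951), an MPN domain subunit, fell most, to 215 and 229.5 CPM in the Th17 libraries, against 442 and 639 CPM in the naive libraries (log2 fold change -1.28, SE 0.21, adjusted p = 0.00063). Eif3k (chr7:28971372-28981864) was at 127 and 123 CPM in the Th17 libraries, against 233 and 302 CPM in the naive libraries (log2 fold change -1.10, SE 0.17, adjusted p = 0.00059). Eif3e (chr15:43250058-43282719), a PCI domain subunit, was at 256 and 225 CPM in the Th17 libraries, against 406 and 573 CPM in the naive libraries (log2 fold change -1.03, SE 0.20, adjusted p = 0.0021). For all 3 the Th17 libraries lay close together below both naive libraries. Eif3h, the other MPN domain subunit, was at 385 and 326 CPM in the Th17 libraries, against 436 and 584 CPM in the naive libraries (log2 fold change -0.52, SE 0.20, adjusted p = 0.0447), and its call was lost in 7 of the 10 alternatives, among them the fits without Th17 library 2 or naive library 2. Naive library 2 was the higher of the naive pair for these 4 genes. This was not particular to them, since among the eIF3 genes only Eif3a and Eif3j2 were lower in naive library 2. Summed over the eIF3 genes, the naive libraries were at 3542 and 4403 CPM. Naive library 2 was also the higher for Rps6, a ribosomal protein gene (638 and 542 CPM in Th17, against 1435 and 2021 CPM in naive cells). The same held for the elongation factor gene Eef1a1 (7311 and 6845 CPM in Th17, against 16027 and 23952 CPM in naive cells).

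The remaining octamer genes were not lower as a group. Eif3c rose, at 605 and 503 CPM in the Th17 libraries, against 353 and 388 CPM in the naive libraries (log2 fold change 0.58, SE 0.18, adjusted p = 0.018), while Eif3a, the largest subunit, was at 545 and 448 CPM in the Th17 libraries, against 401 and 363 CPM in the naive libraries and was not called (log2 fold change 0.38, adjusted p = 0.0899). Eif3l and Eif3m had log2 fold changes of 0.17 and -0.37 and were not called. Outside the octamer, Eif3d, a subunit that can bind the cap of some mRNAs, was called with a log2 fold change of 0.46 (adjusted p = 0.045), and Eif3b, Eif3g and Eif3i had 0.39, -0.21 and 0.10 without a call. Eif3j1, which helps eIF3 to bind the small subunit, was at 92.8 and 79.1 CPM in the Th17 libraries, against 37.04 and 46.8 CPM in the naive libraries (log2 fold change 1.04, SE 0.18, adjusted p = 0.00087). Its near copy Eif3j2 had 49 and 117 reads in the Th17 libraries, against 10 and 5 reads in the naive libraries (log2 fold change 3.53, SE 0.90, adjusted p = 0.0132). The annotated coding sequences of the J genes were identical at every aligned position, so reads of Eif3j1 could be counted for Eif3j2, and the values of Eif3j2 are uncertain. The call of Eif3c was lost in 4 of the 10 alternatives and that of Eif3d in 6. Both were lost without a low-count filter and without Th17 library 1, naive library 1 or naive library 2. Eif3d also lost its call under the other low-count filter and with the replicate number as a term. The call of Eif3j2 was lost without naive library 1 or 2. The log2 fold change of Eif3j2 was 1.91 without Th17 library 2 and 4.24 without Th17 library 1. Exons of Eif3j1 also share 1107 bases with Spg11 on the other strand, and those of Eif3d share 2151 bases with the antisense gene Gm17638. The strand setting of the counting is not given in the sources used here.

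Because eIF3 subunits assemble in equal numbers, their RNA levels were also set side by side per kb of annotated exon. Over the 12 subunit genes without the J genes they ran from 35.7 CPM per kb for Eif3e to 221 for Eif3h in Th17 cells, a 6.18-fold span, and from 43.8 for Eif3a to 316 for Eif3h in naive cells, a 7.23-fold span. Per kb of coding sequence the spans were 2.74-fold in Th17 cells and 5.27-fold in naive cells. The medians per kb of exon over these 12 genes were 69.5 CPM per kb in Th17 cells and 78.2 in naive cells. Annotated exon length includes long or rare untranslated ends, so the order of genes depends on which length is used.

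**Figure D3:**
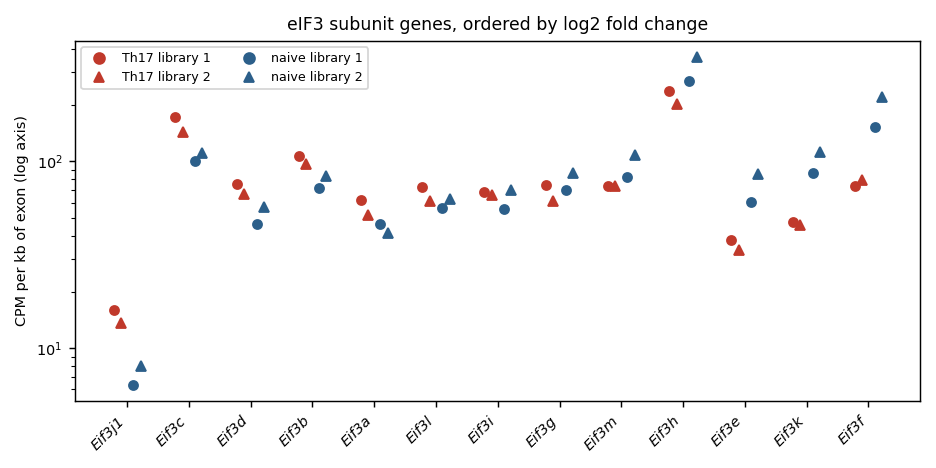
Level in CPM per kb of annotated exon, on a log axis, in each Th17 and naive library for the 13 eIF3 genes without Eif3j2. Eif3h is the highest in all libraries, and the naive points lie above the Th17 points for Eif3e, Eif3f, Eif3h, Eif3k and Eif3m.

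The promoter of Eif3f is shown because this gene fell most among the eIF3 genes and carries at its start a run of C and T, the kind of start found on mRNAs whose translation mTORC1 controls. The window is 300 bases from RefSeq on GRCm38.p6, chr7:108934165-108934464 on the plus strand, from 250 bases before the annotated start, with capitals marking the E-box CACGTG and the run of 15 C or T that begins 4 bases before the start:
Eif3f promoter: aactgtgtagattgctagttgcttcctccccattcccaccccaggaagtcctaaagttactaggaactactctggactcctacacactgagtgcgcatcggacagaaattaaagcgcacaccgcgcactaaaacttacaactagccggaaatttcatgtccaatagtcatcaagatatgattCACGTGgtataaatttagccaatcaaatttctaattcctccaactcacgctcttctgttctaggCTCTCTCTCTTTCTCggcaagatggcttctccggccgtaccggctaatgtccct
A run was counted where it held at least 8 such bases and either began within 5 bases of the annotated start or covered it. Such runs were found in 6 of the 39 tested members with a window (15.4%), beside 7.9% of tested genes. They were those of Eif2s3x, Eif2s3y, Eif2b2, Eif2b5, Eif3f and Eif3l, of which 1 was called lower and 5 were not called. The run of Eif2b2 begins 5 bases after the start and that of Eif2b5 begins 17 bases before it, so the runs do not all begin at the start itself.

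In the eIF4F complex, genes for the cap-binding protein and for a helicase rose, and the partner helicase gene fell. Of 7 genes 3 were higher, 2 lower and 2 not called. Eif4e (chr3:138526179-138559696), the cap-binding protein, was at 179 and 159 CPM in the Th17 libraries, against 66.5 and 80.8 CPM in the naive libraries, 2.30-fold higher in Th17 cells (log2 fold change 1.20, SE 0.17, adjusted p = 0.00026). Eif4a1 (chr11:69666936-69672423), the main RNA helicase, was at 1158 and 1078 CPM in the Th17 libraries, against 597 and 688 CPM in the naive libraries (log2 fold change 0.80, SE 0.18, adjusted p = 0.0045). Eif4a2 (chr16:23107444-23114136), a closely related helicase, was at 338 and 464 CPM in the Th17 libraries, against 564 and 700.2 CPM in the naive libraries (log2 fold change -0.66, SE 0.21, adjusted p = 0.0224). No Th17 library overlapped the naive libraries for any of these 3 genes. The call of Eif4a2 was lost with library totals and without Th17 library 1, naive library 1 or naive library 2. The helicase helpers went apart, with Eif4h at 419.7 and 399 CPM in the Th17 libraries, against 267 and 283 CPM in the naive libraries (log2 fold change 0.57, SE 0.16, adjusted p = 0.0113), and Eif4b at 568 and 521 CPM in the Th17 libraries, against 709 and 780.00 CPM in the naive libraries (log2 fold change -0.45, SE 0.17, adjusted p = 0.0464). Eif4b lost its call in 8 of the 10 alternatives, and Eif4h without Th17 library 1 or naive library 1. The scaffold genes were not called, with Eif4g1 at 723 and 642 CPM in the Th17 libraries, against 605 and 517 CPM in the naive libraries (log2 fold change 0.28, adjusted p = 0.196), and Eif4g3 at 226 and 200.04 CPM in the Th17 libraries, against 273 and 192 CPM in the naive libraries (log2 fold change -0.13, adjusted p = 0.579).

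The helicase genes moved apart. The log2 ratio of Eif4a1 over Eif4a2 reads was 1.78 and 1.22 in the Th17 libraries, against 0.08 and -0.03 in the naive libraries, a difference of 1.47. In an exact two-sided permutation test over the 4 libraries this gave p = 0.333, the smallest that 2 against 2 allows, so no ratio of paralogues can pass a threshold of 0.05 here. The 15 ratios computed include those of Eif2a and Eif2d over Eif2s1, which are not paralogue pairs. Of the 15, 13 gave p = 0.333 in this exact test (0.385 adjusted by Benjamini-Hochberg over the 15) and 2, whose groups overlapped, gave 0.667 (0.667 adjusted). Per kb of exon Eif4a1 made up 77.5% ± 4.76 in Th17 cells and 55.7% ± 1.30 in naive cells (SD, n = 2 each) of the helicase pair. The sum of the pair was 333 ± 3.56 CPM per kb in Th17 cells and 267 ± 32.8 in naive cells (SD, n = 2 each). The coding sequences of the pair were 78.2% identical where aligned, and exons of Eif4a2 share 194 bases with Rfc4 on the other strand. On the same strand, exons of Eif4a1 overlap small nucleolar RNA genes by 144 and 143 bases. Those of Eif4a2 overlap several such genes, by up to 178 bases (Snora81). The part of these overlaps in the ratio was not tested.

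The RefSeq promoter windows of the 3 changed eIF4F core genes, from GRCm38.p6 and each 300 bases long from 250 bases before an annotated start, are given to show the E-box CACGTG, the sequence that Myc and related factors bind. It is in capitals, and lies in the windows shown of the genes that rose and not in that of Eif4a2. Eif4e has 2 windows, and the window shown was picked as the one with the most CACGTG. Eif4a1 and Eif4a2 have 1 window each, so the choice of window was not alike for the 3 genes. The windows shown are chr3:138527018-138527317 on the plus strand for Eif4e, chr11:69672374-69672673 on the minus strand for Eif4a1 and chr16:23107218-23107517 on the plus strand for Eif4a2:
Eif4e promoter: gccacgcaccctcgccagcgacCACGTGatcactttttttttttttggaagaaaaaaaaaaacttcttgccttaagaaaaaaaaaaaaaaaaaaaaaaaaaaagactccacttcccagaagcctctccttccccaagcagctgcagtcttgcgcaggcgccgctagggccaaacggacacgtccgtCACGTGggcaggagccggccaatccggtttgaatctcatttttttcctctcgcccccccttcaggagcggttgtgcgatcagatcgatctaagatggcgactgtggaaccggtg
Eif4a1 promoter: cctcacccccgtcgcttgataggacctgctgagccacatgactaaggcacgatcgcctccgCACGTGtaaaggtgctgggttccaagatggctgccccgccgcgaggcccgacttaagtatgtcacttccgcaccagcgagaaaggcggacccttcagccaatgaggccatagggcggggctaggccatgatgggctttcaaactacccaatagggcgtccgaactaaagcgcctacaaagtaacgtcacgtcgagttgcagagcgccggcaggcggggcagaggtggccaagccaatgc
Eif4a2 promoter: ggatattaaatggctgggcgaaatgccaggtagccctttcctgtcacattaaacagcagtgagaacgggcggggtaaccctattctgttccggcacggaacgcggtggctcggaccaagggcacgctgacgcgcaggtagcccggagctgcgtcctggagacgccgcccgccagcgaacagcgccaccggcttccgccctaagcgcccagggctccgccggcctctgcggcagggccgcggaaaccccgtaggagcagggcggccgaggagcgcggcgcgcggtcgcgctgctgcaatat
CACGTG reads the same on both strands. It was present in 10 of the 39 tested members with a window (25.6%), beside 11.9% of tested genes and 8.09% of all genes with a window. The 10 were Eif3a, Eif3f, Eif3k, Eif4a1, Eif4e, Eif4g1, Eif4h, Eif1b, Eif5a and Eif5a2, of which 5 rose, 2 fell and 3 were not called. By call it was in 5 of the 15 members with a window that rose, 2 of the 5 that fell and 3 of the 19 not called. Genes with several annotated starts have more windows and so more chances of a match, and a match describes letters, not binding.

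The 4E-BP genes, whose products block eIF4E, changed in opposite directions. Eif4ebp1 (chr8:27260329-27276674) was at 123 and 111 CPM in the Th17 libraries, against 4.99 and 5.70 CPM in the naive libraries, 22.02-fold higher in Th17 cells and the largest fold change of the tested members (log2 fold change 4.46, SE 0.18, adjusted p = 2.6e-07). Eif4ebp2 (chr10:61428491-61452661) was at 208 and 195 CPM in the Th17 libraries, against 544 and 526 CPM in the naive libraries (log2 fold change -1.41, SE 0.16, adjusted p = 8.4e-05). The libraries of each group lay close together and far from the other group for both genes. Eif4ebp3 had 2 and 3 reads in the Th17 libraries, against 14 and 5 reads in the naive libraries, too few to be tested, and its exons share 501 bases with another gene on the same strand.

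The log2 ratio of Eif4ebp1 over Eif4ebp2 reads was -0.75 and -0.81 in the Th17 libraries, against -6.76 and -6.52 in the naive libraries (exact permutation p = 0.333). Per kb of exon, Eif4ebp1 made up 60.6% ± 0.698 in Th17 cells and 2.57% ± 0.297 in naive cells (SD, n = 2 each) of this pair. Summed over the 3 genes per kb of exon, 4E-BP RNA was at 92.2 and 84.8 CPM per kb in the Th17 libraries, against 97.3 and 93.9 CPM per kb in the naive libraries. The group means, 88.5 ± 5.26 in Th17 cells and 95.6 ± 2.38 in naive cells (SD, n = 2 each), differed by less than the Th17 libraries did from each other. Per kb of coding sequence the sum was 928 and 860.1 CPM per kb in the Th17 libraries, against 1527 and 1477 CPM per kb in the naive libraries, lower in both Th17 libraries. Eif4ebp2 has 5784 bases of annotated exon and 360 of coding sequence, and Eif4ebp1 has 2196 and 351. Set against Eif4e per kb of exon, the summed 4E-BP RNA gave a ratio of 3.10 and 3.20 in the Th17 libraries, against 8.79 and 6.99 in the naive libraries. Per kb of coding sequence the ratio was 3.38 and 3.52 in the Th17 libraries, against 14.95 and 11.9 in the naive libraries. On both lengths the ratio was lower in the Th17 libraries, with no overlap. The phosphorylation that releases 4E-BP from eIF4E was not measured.

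The other cap-binding genes were not called. Eif4e2, whose product 4EHP binds the cap without eIF4G, was at 115 and 129 CPM in the Th17 libraries, against 105 and 118 CPM in the naive libraries (log2 fold change 0.13, adjusted p = 0.478), and Eif4e3 was at 32.3 and 31.1 CPM in the Th17 libraries, against 22.02 and 27.5 CPM in the naive libraries (log2 fold change 0.36, adjusted p = 0.0927). The log2 ratio of Eif4e over Eif4e2 was 0.64 and 0.30 in the Th17 libraries, against -0.65 and -0.55 in the naive libraries, and that of Eif4e over Eif4e3 was 2.47 and 2.36 in the Th17 libraries, against 1.59 and 1.55 in the naive libraries (exact permutation p = 0.333 for each). Per kb of exon Eif4e made up 49.3% ± 2.89 of the 3 genes in Th17 cells and 33.1% ± 0.493 in naive cells (SD, n = 2 each). Their sum was 57.0 ± 1.30 CPM per kb in Th17 cells and 37.0 ± 4.52 in naive cells. Exons of Eif4e3 share 373 bases with the protein-coding gene Gm20696 on the same strand, and the part of this overlap in its values was not tested. Eif4enif1 encodes 4E-T, which carries eIF4E into the nucleus and into P-bodies, and was at 118 and 86.2 CPM in the Th17 libraries, against 95.1 and 105 CPM in the naive libraries (log2 fold change 0.03, adjusted p = 0.882).

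**Figure D4:**
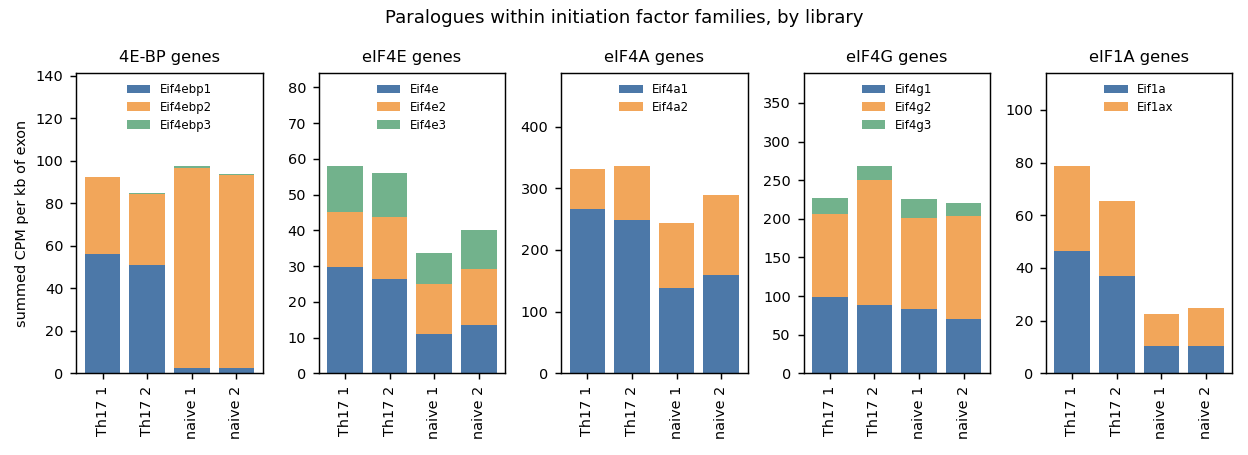
Level in CPM per kb of annotated exon of the paralogues of the 4E-BP, eIF4E, eIF4A, eIF4G and eIF1A families, stacked for each Th17 and naive library. Eif4ebp1 is the larger part of the 4E-BP column in Th17 libraries and a thin band in naive libraries, while the eIF1A column is taller in both Th17 libraries.

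Of the 6 genes for scanning and start codon choice, the genes of eIF1A rose and the others were not called. Eif1a was at 193 and 154 CPM in the Th17 libraries, against 43.2 and 43.9 CPM in the naive libraries, 3.99-fold higher in Th17 cells (log2 fold change 1.997, SE 0.17, adjusted p = 1.4e-05). Its X-linked paralogue Eif1ax was at 169 and 150.1 CPM in the Th17 libraries, against 63.9 and 74.1 CPM in the naive libraries, 2.32-fold higher (log2 fold change 1.21, SE 0.16, adjusted p = 0.0002). Neither gene's groups overlapped. The log2 ratio of Eif1a over Eif1ax was 0.19 and 0.04 in the Th17 libraries, against -0.56 and -0.75 in the naive libraries, and per kb of exon Eif1a made up 57.8% ± 1.83 in Th17 cells and 44.5% ± 2.28 in naive cells (SD, n = 2 each) of the pair. The sum of the pair was 72.0 ± 9.24 CPM per kb in Th17 cells and 23.6 ± 1.49 in naive cells. Their annotated coding sequences, of 762 bases for Eif1a and 432 for Eif1ax, were 85.6% identical over the 432 bases that aligned.

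Eif1, the factor that guards against initiation at wrong codons, was at 528 and 608 CPM in the Th17 libraries, against 388 and 528 CPM in the naive libraries (log2 fold change 0.31, adjusted p = 0.204), and its paralogue Eif1b was at 52.1 and 52.96 CPM in the Th17 libraries, against 44.9 and 53.4 CPM in the naive libraries (log2 fold change 0.10, adjusted p = 0.601). Eif5, which makes eIF2 hydrolyse its GTP at the start codon, was at 315 and 322 CPM in the Th17 libraries, against 343 and 366 CPM in the naive libraries (log2 fold change -0.16, adjusted p = 0.398). Eif1ad, which shares the eIF1A fold, had the lowest fold change of the group, at 60.4 and 53.8 CPM in the Th17 libraries, against 68.7 and 74.8 CPM in the naive libraries (log2 fold change -0.33, adjusted p = 0.0884). It shares 428 bases of exon with Banf1 on the other strand. For Eif1 and Eif1b the naive libraries differed from each other by more than the groups did.

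All 4 genes for subunit joining and for the linked factors rose. Eif5a (chr11:69916714-69921958) carries the modified lysine hypusine and helps the ribosome through difficult peptide bonds, and it was at 1252 and 1209 CPM in the Th17 libraries, against 410.2 and 495 CPM in the naive libraries, 2.72-fold higher in Th17 cells (log2 fold change 1.44, SE 0.19, adjusted p = 0.00018). Eif5b, the GTPase that joins the subunits, was at 256 and 223 CPM in the Th17 libraries, against 137 and 141 CPM in the naive libraries (log2 fold change 0.79, SE 0.16, adjusted p = 0.002). Eif5a2, a rarer paralogue of Eif5a, was at 21.7 and 18.03 CPM in the Th17 libraries, against 9.71 and 11.1 CPM in the naive libraries (log2 fold change 0.93, SE 0.21, adjusted p = 0.0038), and Eif6, which keeps the large subunit free, was at 186 and 163 CPM in the Th17 libraries, against 109.9 and 134 CPM in the naive libraries (log2 fold change 0.52, SE 0.17, adjusted p = 0.0224). The groups did not overlap for any of the 4. The call of Eif5a2 was lost without either naive library, and that of Eif6 without a low-count filter and without Th17 library 1 or naive library 1. Summed, these genes were at 1715 and 1613 CPM in the Th17 libraries, against 667 and 781 CPM in the naive libraries. Reads of Eif5a over those of Eif5a2 gave a log2 ratio of 5.85 and 6.06 in the Th17 libraries, against 5.40 and 5.47 in the naive libraries. The genes of the enzymes that make hypusine were not called, with Dohh at 12.2 and 12.5 CPM in Th17, against 9.18 and 9.65 CPM in naive cells (log2 fold change 0.39, adjusted p = 0.157), and Dhps at 42.1 and 40.4 CPM in Th17, against 45.95 and 47.8 CPM in naive cells (log2 fold change -0.18, adjusted p = 0.287). Exons of Eif5b share 1643 bases with Rev1 on the other strand.

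Of the factors for alternative routes, 2 of 3 rose. Eif2d, which can place tRNA on the ribosome and acts in recycling, was at 110.2 and 93.05 CPM in the Th17 libraries, against 53.3 and 68.6 CPM in the naive libraries (log2 fold change 0.74, SE 0.18, adjusted p = 0.0062). Eif2a, a single-chain factor unrelated to the eIF2 alpha subunit, was at 103 and 95.9 CPM in the Th17 libraries, against 55.1 and 72.8 CPM in the naive libraries (log2 fold change 0.64, SE 0.18, adjusted p = 0.0115). Both calls were lost without naive library 1. Set against Eif2s1, both lay lower in each Th17 library than in the naive libraries, with a difference in log2 ratio of -0.35 for Eif2d and -0.45 for Eif2a. Eif4g2, the eIF4G relative that does not bind eIF4E, was at 1092 and 1646 CPM in the Th17 libraries, against 1196 and 1344 CPM in the naive libraries (log2 fold change 0.11, SE 0.23, adjusted p = 0.698), and the spread between Th17 libraries exceeded the difference between groups. Reads of Eif4g1 over those of Eif4g2 gave a log2 ratio of -0.59 and -1.36 in the Th17 libraries, against -0.98 and -1.38 in the naive libraries, so the groups overlapped (exact permutation p = 0.667). That of Eif4g1 over Eif4g3 was 1.68 and 1.68 in the Th17 libraries, against 1.15 and 1.43 in the naive libraries. Eif4a3, a helicase of the exon junction complex, was at 145 and 117 CPM in the Th17 libraries, against 145 and 179 CPM in the naive libraries (log2 fold change -0.31, SE 0.18, adjusted p = 0.157). Its copies Eif4a3l1 and Eif4a3l2 had at most 5 reads in any library and were not tested.

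Ranked per kb of exon, Eif5a was first of the members in Th17 cells, at 527 and 508 CPM per kb in the Th17 libraries, against 173 and 208 CPM per kb in the naive libraries. Eif1 followed in Th17 cells at 252 and 289.8 CPM per kb in the Th17 libraries, against 185 and 252 CPM per kb in the naive libraries, and Eif4a1 at 267 and 249 CPM per kb in the Th17 libraries, against 138 and 159 CPM per kb in the naive libraries. The Th17 values of Eif1 and Eif4a1 overlapped, and those of Eif5a lay above both. Eif3h was first in naive cells, at 239 and 202 CPM per kb in the Th17 libraries, against 271 and 362 CPM per kb in the naive libraries. Its naive range per kb of exon did not overlap those of Eif5a and Eif1, which overlapped each other. The naive order depends on the length used. Per kb of coding sequence Eif3h was at 413 and 553 CPM per kb in the naive libraries. On that length it lay below Eif4ebp2 (1511 and 1460), Eif1 (1146 and 1558) and Eif5a (888 and 1071) in the naive libraries.

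The genes beside the initiation factors in the pathway did not move in 1 direction. Of 65 such genes tested, 16 rose, 19 fell and 30 were not called, with a median log2 fold change of -0.03. Over all tested genes 34.3% were called higher and 30.7% lower, with a median of 0.06. The counts of the smaller lists below are to be read beside these shares. Among 16 genes of mTORC1, of the related complex mTORC2, and of their regulators and targets, 2 rose and 7 fell. Tbc1d7, a subunit of the TSC complex that restrains mTORC1, was highest at 19.5 and 20.2 CPM in Th17, against 4.51 and 2.96 CPM in naive cells (log2 fold change 2.40, adjusted p = 7.4e-05). Rps6, a ribosomal protein that S6 kinase phosphorylates, was lowest (log2 fold change -1.55, adjusted p = 0.00036). The other TSC complex genes listed, Tsc1 and Tsc2, went against Tbc1d7 and were called lower, with log2 fold changes of -0.81 and -0.49. Both eIF4E kinase genes fell, with Mknk1 at 33.8 and 32.1 CPM in Th17, against 65.96 and 66.7 CPM in naive cells (log2 fold change -1.01, adjusted p = 0.00033), and Mknk2 at 334 and 322 CPM in Th17, against 597 and 654 CPM in naive cells (log2 fold change -0.93, adjusted p = 0.0012). Among 14 cap and poly(A) partners, 3 rose and 3 fell. Pdcd4, an inhibitor of the eIF4A helicase, was at 60.2 and 71.4 CPM in Th17, against 497 and 626 CPM in naive cells (log2 fold change -3.09, adjusted p = 2.5e-06), the lowest fold change of the list. Cyfip1, which can bind eIF4E, was at 60.05 and 61.8 CPM in Th17, against 5.09 and 3.52 CPM in naive cells (log2 fold change 3.81, adjusted p = 1.1e-06), the highest.

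Of 7 genes for scanning, reinitiation and recycling, 2 rose and 1 fell, and their extremes were the reinitiation factor gene Denr at 103 and 92.3 CPM in Th17, against 49.2 and 59.4 CPM in naive cells (log2 fold change 0.84, adjusted p = 0.0019) and Bzw2, whose product competes with eIF5, at 123 and 109.8 CPM in Th17, against 179 and 189 CPM in naive cells (log2 fold change -0.66, adjusted p = 0.0044). Among 8 elongation genes 1 rose and 3 fell. Eef1e1, a part of the aminoacyl-tRNA synthetase complex, was highest at 78.95 and 64.03 CPM in Th17, against 21.3 and 33.2 CPM in naive cells (log2 fold change 1.40, adjusted p = 0.0017), and Eef1a1, the carrier of aminoacyl-tRNA, was lowest (log2 fold change -1.50, adjusted p = 0.0017). All 3 termination genes rose, from Gspt1 at 274 and 273 CPM in Th17, against 150.1 and 152 CPM in naive cells (log2 fold change 0.86, adjusted p = 0.001) to Gspt2, which had 166 and 108 reads in the Th17 libraries, against 1 and 3 reads in the naive libraries. Of the mitochondrial initiation factors, Mtif3 fell, at 19.8 and 18.6 CPM in Th17, against 29.8 and 29.6 CPM in naive cells (log2 fold change -0.63, adjusted p = 0.0077), and Mtif2 was at 42.8 and 35.8 CPM in Th17, against 40.5 and 40.2 CPM in naive cells (log2 fold change -0.04, adjusted p = 0.853).

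The authors' deposited table gave fold changes of the same sign for 49 of the 49 tested members. At an adjusted p under 0.05 the authors' deposited table called 25 members higher and 7 lower, where 31% of its 13462 genes with an adjusted p were higher and 26.7% lower. It shared 20 higher and 6 lower calls with the edgeR test. No initiation factor gene was named at any of the 869 edited sites listed for Th17 and naive cells, nor at any of the 355 listed for DDX5-deficient and wild-type Th17 cells, and no listed site lay within the body of a member gene. The site list of DDX5-deficient and wild-type cells named an eIF2 kinase gene, Eif2ak2, at 1 site. These lists hold only sites that passed the authors' limits, so they do not show that the genes are unedited.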

How the data were processed

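Tools listed without role or order are DESeq2 1.18.1, featureCounts and STAR 2.6.1a, on the mm10 build, per the submitters' processing notes. The counting settings, its use of strand and the annotation are not given in the sources used here. The deposited table gave original counts per library, the authors' normalized signal per library, and the log2 fold change, score and p-value that the authors made, in DESeq2's columns per the file headers. Edited sites were deposited with the fraction of edited reads, a confidence score and a coverage count.

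The members and gene lists were chosen with earlier results of these data known. Original counts were tested with edgeR 4.0.16 in R 4.3.3 (filterByExpr, TMM, robust quasi-likelihood fit on group alone, two-sided, Benjamini-Hochberg over 11989 genes, threshold 0.05), and the procedure was tested on simulated data. The standard error is the log2 fold change divided by the root of F. DESeq2 1.42.0, other scaling and filters, each library left out and a replicate block were alternatives. CPM used TMM-scaled sizes. Levels per kb divided by the union of GENCODE M21 exons, matched by identifier for 16295 genes. Gene coordinates are from the same annotation. Paralogue ratios added 0.5 reads and were tested by exact permutation. Promoters are RefSeq windows on GRCm38.p6. Members past a log2 of 1, the extremes of each complex and each paralogue pair were named with values per library. Library depth ran from 11768994 to 26624436 reads.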

Additional observations from a re-analysis of the deposited data

How the results depend on the processing

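The 14 calls named in the report kept their direction and their side of the threshold in all 10 alternatives, and the other 13 lost the call in at least 1. Library totals raised the median log2 fold change of all genes by 0.30 and that of the members to 0.62, with 30 members higher and 4 lower. Under them Eif2b2 (0.18), Eif2b4 (0.073), Eif3g (0.093), Eif4g3 (0.16), Eif5 (0.15), Dhps (0.12) and Mtif2 (0.26), none of them called by edgeR, changed sign. Leaving out a library in turn gave 10 to 21 members higher and 4 to 7 lower, a member median of 0.16 to 0.37, and 2380 to 4847 genes higher in all, the lowest counts of genes coming without naive library 1 (2436) or naive library 2 (2380). In those fits the lone sample is assumed to vary like the other group. Members that changed sign there, none of them called, ranged from -0.10 to 0.21 for Eif3i, -0.44 to 0.11 for Eif4g3, -0.064 to 0.15 for Eif1b, -0.24 to 0.24 for Eif4enif1 and -0.21 to 0.34 for Eif4g2, and Mtif2 ranged from -0.20 to 0.088. The cause was not tested.

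The replicate block, in which the replicate number entered as a term, gave 19 members higher and 5 lower, and 4094 genes higher and 3644 lower in all. It removed the calls of Eif3d, Eif3h and Eif4b. The deviations of same-numbered libraries correlated at -0.081 over 11989 genes, so pairing by number was not assumed. The labels give library 2 of both groups a shared ID and library 1 of each group its own, without saying what the ID marks. DESeq2 called 23 members higher and 9 lower.

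The difference in log2 ratio of Eif4g1 over Eif4g2 ran from -0.18 to 0.59 with each library left out. That of Eif4ebp3 over Eif4ebp2, which rests on few reads, was -0.44, was 0.27 with 5 reads added, and ran from -1.29 to 0.41 with each library left out. The log2 ratio of the complex medians per kb of exon, Th17 over naive, was 0.86 for eIF2 (1.15 under library totals), 0.09 for eIF2B (0.38), 0.08 for eIF4F (0.37), 0.35 for scanning (0.64), 0.59 for joining (0.88), 0.27 for the 4E inhibitors (0.56) and 0.64 for the alternative factors (0.93). It was -0.13 for eIF3, and 0.17 under library totals. Per kb of coding sequence it changed sign for eIF4F (-0.40) and eIF3 (0.14), and was 0.64 for scanning and 1.98 for the 4E inhibitors.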
